A study of Mus musculus with 6 samples.

Results

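Dermal stroma and vessels were represented by 34 marker genes, taken by name from a deposited count table of 38924 genes: 16 of fibroblasts, 13 of endothelial cells and 5 of mural cells, the pericytes and smooth muscle cells that wrap vessels. All 34 symbols were matched to a mouse gene identifier. RNA was sequenced from 6 samples of CD49f-positive mouse epidermal cells purified by flow cytometry, all homozygous for a floxed allele of Rnaseh2b, a subunit gene of the RNase H2 enzyme, which cuts DNA at embedded ribonucleotides so that they can be replaced. In 3 of them K14-Cre was present (K14-Cre+), and the other 3 carried the floxed alleles without Cre (K14-Cre-). The keratin 14 promoter drives this recombinase in basal keratinocytes, and the labels give no age, treatment or animal for any sample. Whether each library of a group comes from a separate animal is thus not stated, and the spread behind the p-values may in part be technical. Sex, inferred from expression, differed within each group, so the 3 libraries of a group were not all from a single animal.

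CD49f is integrin alpha 6, which anchors basal keratinocytes to the basement membrane and is also carried by endothelial cells. Fibroblasts of the dermis secrete the collagens, proteoglycans and microfibrils on which the epidermis rests, endothelial cells line blood and lymph vessels, and mural cells contract around them or steady their walls. The members are known for marking these cells in skin, although several, among them Vim, Sparc and Dcn, are not restricted to them.

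Library totals ran from 22948779 to 31718094 counts. Levels are given as CPM, a gene's counts divided by the library total after TMM scaling, and 3 counts, taken as the floor, corresponded to 0.0922 to 0.143 CPM. Rnaseh2b lay at 3.28 to 5.29 CPM in K14-Cre+ and at 20.7 to 21.8 CPM in K14-Cre- libraries, as the labels imply. Of the keratinocyte genes, the basal keratin gene Krt5 lay at 7656 to 9075 CPM, while the keratin genes of suprabasal cells lay higher, Krt1 at 27428 to 45709 CPM and Krt10 at 40773 to 67532 CPM. Summed, 9 suprabasal genes reached 88123 to 151757 CPM and 15 basal genes 19071 to 21544 CPM, so the libraries also held much RNA of genes typical of differentiating keratinocytes. The libraries stood apart in the stromal genes: K14-Cre+ replicate 1 and K14-Cre- replicate 3 were high and the other 4 lower. Results are therefore given with and without these libraries. In bulk RNA, fewer stromal cells and less RNA per stromal cell cannot be told apart.

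Stretches upstream of the annotated start are shown for 4 members: a fibrillar collagen gene, a pair of vascular receptor genes and a pericyte gene, whose levels moved together over the libraries. They come from RefSeq on build GRCm38.p6, which held 25 promoter windows for 22 of the 34 members, and were read 5′ to 3′ on the gene's strand up to the base before the start. Capitals mark matches to 3 motifs searched on both strands. The TATA box was spelled TATAAA. The box of the NF-Y factor was spelled CCAAT, which reads ATTGG when it lies on the other strand. The core bound by ETS factors was spelled GGAA, which reads TTCC in reverse. No matches overlapped in these stretches.
Col3a1, chr1:45311388-45311537, plus strand: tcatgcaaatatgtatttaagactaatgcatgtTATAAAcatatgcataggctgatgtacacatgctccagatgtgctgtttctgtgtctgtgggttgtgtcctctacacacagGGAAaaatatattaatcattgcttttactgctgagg
Flt1, chr5:147726012-147726161, minus strand: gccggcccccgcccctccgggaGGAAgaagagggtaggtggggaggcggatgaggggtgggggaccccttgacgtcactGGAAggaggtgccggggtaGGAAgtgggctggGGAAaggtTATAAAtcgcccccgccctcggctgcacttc
Tek, chr4:94739139-94739288, plus strand: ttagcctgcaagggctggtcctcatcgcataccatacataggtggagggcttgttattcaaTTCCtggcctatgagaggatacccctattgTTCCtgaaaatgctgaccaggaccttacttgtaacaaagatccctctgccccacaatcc
Rgs5, chr1:169655351-169655500, plus strand: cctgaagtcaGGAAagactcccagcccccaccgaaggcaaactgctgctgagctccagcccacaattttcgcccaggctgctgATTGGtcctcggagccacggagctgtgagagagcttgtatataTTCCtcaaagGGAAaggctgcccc
In these stretches Flt1 has TATAAA at -31 to -26, Col3a1 at -117 to -112, and the other two stretches have none. Over the 250 bases upstream, GGAA was present in 24 of the 25 member windows and in 93.4% of all 32851 windows. TATAAA was present in 3 member windows against 12.4% of all, and CCAAT in 5 against 33.9%. A match is only a run of letters and says nothing of binding.

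The genes of type I and III collagen varied most among the abundant members. Col1a1 (ENSMUSG00000001506, chromosome 11, 94936224 to 94953042, plus strand of mm10, 52 exon blocks) encodes a chain of type I collagen, the main fibre of dermis. It lay at 397, 12.1 and 21.0 CPM in K14-Cre+ replicates 1, 2 and 3 and at 17.0, 36.3 and 185 CPM in K14-Cre- replicates 1, 2 and 3. A single library of each group was far above the rest, and the groups overlapped. The highest library held 32.7 times the level of the lowest. Its group means were 143 ± 219 and 79.4 ± 91.7 CPM (SD, n = 3 each), and edgeR estimated a log2 fold change (K14-Cre+ over K14-Cre-) of 0.86 with an SE of 1.36 and an adjusted p of 0.763. The SD exceeded the mean in both groups.

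Col1a2, the partner chain of type I collagen, had 388, 22.8 and 26.9 CPM in K14-Cre+ and 37.3, 56.2 and 205 CPM in K14-Cre- libraries. Col3a1, the type III collagen gene of extensible tissues, had 436, 23.9 and 34.3 CPM against 38.1, 76.5 and 261 CPM. Both showed the same high pair of libraries, with log2 fold changes of 0.56 (SE 1.14) and 0.40 (SE 1.15). The ratio of Col1a1 to Col1a2 counts per kilobase was not constant: it was 1.89 and 1.66 in the high libraries (K14-Cre+ replicate 1 and K14-Cre- replicate 3). In the other 4 it was between 0.845 and 1.44. Col3a1 to Col1a2 kept a narrower range, 1.48 to 1.97.

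The type V collagen genes, whose product sets the width of type I fibrils, were flatter. Col5a1 lay at 151, 53.9 and 45.1 CPM in K14-Cre+ and at 59.8, 72.1 and 112 CPM in K14-Cre- libraries, a range of 3.35-fold. Col5a2 had a range of 3.13-fold. Their log2 fold changes were 0.037 (SE 0.47) and 0.021 (SE 0.44). Col6a1 and Col6a2 encode chains of the beaded filaments of type VI collagen. Col6a1 lay at 76.4, 8.98 and 13.8 CPM in K14-Cre+ against 27.2, 41.5 and 59.8 CPM in K14-Cre-. Here K14-Cre+ replicates 2 and 3 were below every K14-Cre- library, while replicate 1 was above all of them. Col6a2 had the same pattern, from 7.26 to 75 CPM. Their log2 fold changes were -0.36 (SE 0.75) and -0.16 (SE 0.83).

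Less abundant fibroblast genes varied as widely. Pdgfra, the receptor of platelet-derived growth factor on fibroblasts, had 15, 2.21 and 6.98 CPM in K14-Cre+ and 2.65, 5.91 and 13.6 CPM in K14-Cre- libraries. Fbn1, which encodes the microfibril protein fibrillin, ran from 2.92 to 28.6 CPM. Lum, a proteoglycan gene of collagen fibrils, ran from 0.665 to 5.69 CPM and Dpt, the dermatopontin gene of dermal matrix, from 0.443 to 7.08 CPM. In Pdgfra, Fbn1, Lum and Dpt alike the high pair of libraries took both first places. Twist2, a transcription factor gene of the dermal lineage, lay at 2.06, 0.133 and 0.380 CPM against 1.16, 1.56 and 2.59 CPM, the lowest value being 3 counts. Mgp, the matrix Gla protein gene that restrains calcification, had the narrowest range of these, 2.04 to 6.02 CPM.

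The fibroblast members with the highest levels per length were the steadiest. Per kilobase, Vim averaged 101 CPM over the 6 libraries, Sparc 61.9 and Dcn 58.2, against 17.3 for Col3a1, the next in order. Dcn (ENSMUSG00000019929, chromosome 10, 97479500 to 97518162, plus strand), which encodes the proteoglycan decorin, had 126, 114 and 136 CPM in K14-Cre+ and 100.4, 110.4 and 141 CPM in K14-Cre- libraries. The groups overlapped and the highest library held 1.41 times the level of the lowest. The 95% interval of its log2 fold change, estimated at 0.093, was -0.23 to 0.42 (edgeR adjusted p = 0.741). Sparc, a collagen-binding matrix protein gene, ran from 162 to 282 CPM, a range of 1.74-fold. It kept the order of the other genes (K14-Cre+ replicate 1 first, K14-Cre- replicate 3 second) with a log2 fold change of 0.041 (SE 0.23). In the library with the least Col1a1, at 12.1 CPM, Dcn and Sparc were still at 114 and 177 CPM.

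Vim was the only one of the 34 genes whose groups did not overlap, where 28.0% of all tested genes had no overlap. Vim (ENSMUSG00000026728, chromosome 2, 13573927 to 13582826, plus strand) encodes vimentin, the intermediate filament of mesenchymal cells, melanocytes and leukocytes. It lay at 337, 245 and 272 CPM in K14-Cre+ and at 163, 198 and 203 CPM in K14-Cre- libraries. Every K14-Cre+ library was above every K14-Cre- one. Its log2 fold change of 0.60 (SE 0.14) did not pass by edgeR (adjusted p = 0.119) but did by DESeq2 (adjusted p = 0.00366), which called 5.46% of all genes. Over all alternatives the adjusted p ran from 0.00366 to 0.391. Without any 1 library the value stayed between 0.46 and 0.70. Melanocyte markers moved with the same groups: 6 of 8 rose by edgeR, where 0.406% of all tested genes did. Their sum was 682 to 778 CPM in K14-Cre+ and 381 to 442 CPM in K14-Cre- libraries, with none at 0. Of 10 myeloid markers 1 rose (Lyz2) and 1 fell (H2-Ab1) by edgeR, where 0.406% of all tested genes rose and 0.110% fell. An unadjusted p under 0.05 was found for 7 of the 10, in both directions, and for 18.8% of all tested genes. Lyz2 lay at 11.9 to 16.6 CPM in K14-Cre+ and at 5.01 to 6.55 CPM in K14-Cre- libraries. Mpeg1 was likewise higher in every K14-Cre+ library, at 22.5 to 34.2 against 11.2 to 15.7 CPM. H2-Ab1 lay at 2.33 to 4.60 against 13.1 to 24.1 CPM, and Cd74 was likewise lower in every K14-Cre+ library. The sums of the 10, 107 to 151 and 143 to 180 CPM, thus mix opposite directions. The part of melanocytes and myeloid cells in the Vim value was not tested.

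**Figure D1:**
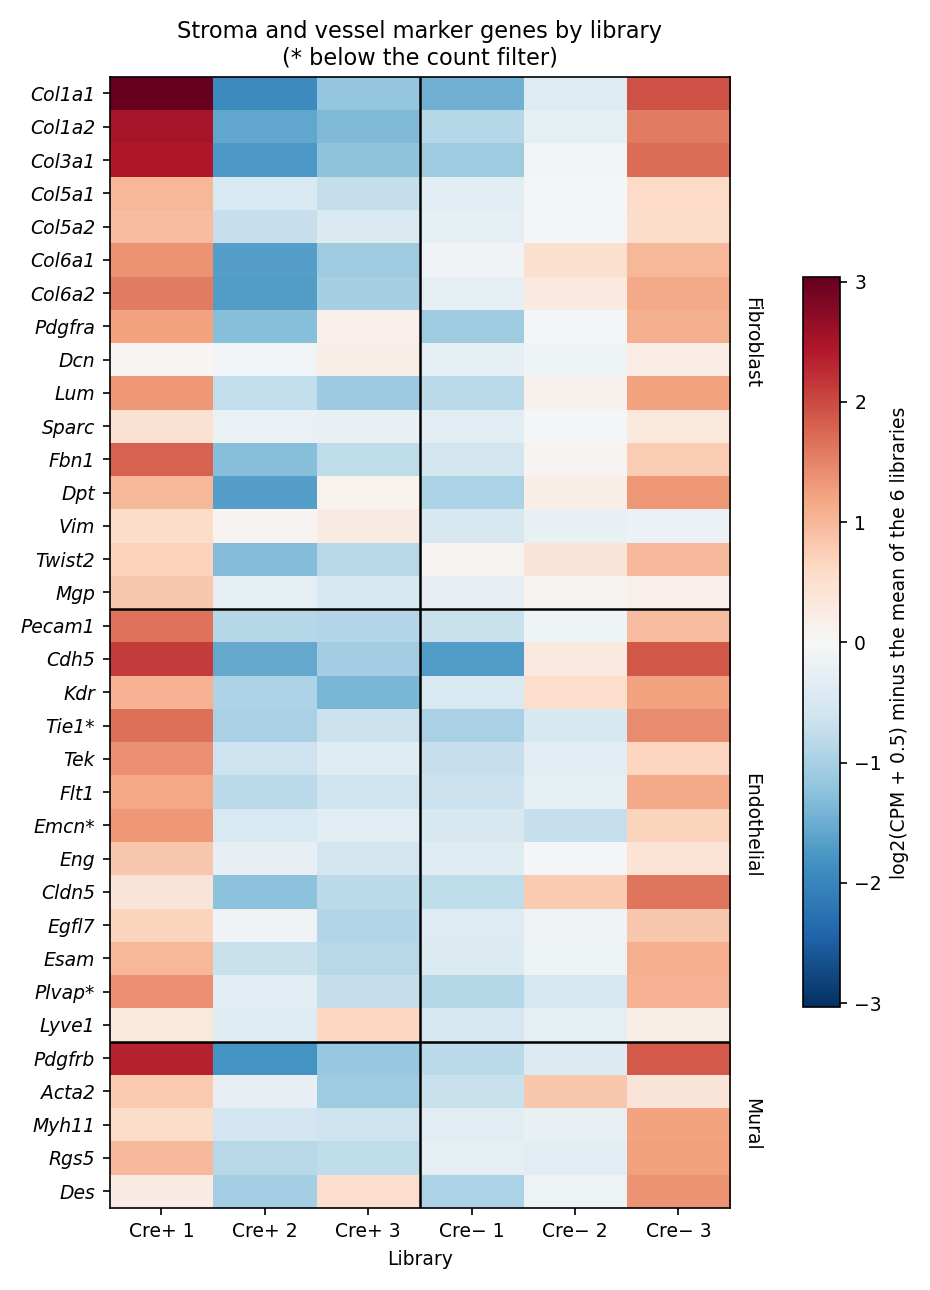
Each row is a member and each column a library; colour gives log2(CPM + 0.5) minus the mean of the 6 libraries (red above, blue below), with lines between the classes and between the groups. Red lies mainly in K14-Cre+ replicate 1 and K14-Cre- replicate 3, the 2 highest libraries in 28 of 34 rows, while Dcn and Vim stay pale.

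Endothelial genes lay low, with at most 1.0 CPM per kilobase on average (Eng), and several spanned counts near 0. Cdh5 (ENSMUSG00000031871, chromosome 8, 104101625 to 104144502, plus strand) encodes VE-cadherin, the adhesion protein of endothelial junctions. It had 230, 2 and 7 counts in K14-Cre+ and 1, 40 and 156 counts in K14-Cre- libraries. This corresponded to 7.07, 0.0885 and 0.333 CPM against 0.0401, 1.64 and 5.94 CPM. One library of each group was at or under the floor of 3 counts. Cdh5 had the largest SD of log2 CPM among the tested members, 2.57. The log2 fold change was 0.023 (SE 1.47), with a 95% interval of -3.44 to 3.49. Pecam1, the CD31 adhesion molecule gene of endothelium, had 6.82, 0.797 and 0.760 CPM against 0.963, 1.64 and 3.96 CPM, again with the same pair on top.

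The receptor genes of vessel growth followed. Kdr and Flt1 encode receptors of vascular endothelial growth factor. Kdr lay at 4.79, 0.841 and 0.475 CPM in K14-Cre+ and at 1.36, 3.20 and 5.48 CPM in K14-Cre- libraries, with a log2 fold change of -0.67 (SE 0.84). Flt1, whose upstream stretch is printed above, lay at 2.55, 0.266 and 0.380 CPM against 0.361, 0.616 and 2.51 CPM. In both genes K14-Cre- replicate 2 came next after the high pair. Tek, the angiopoietin receptor gene, had 2.83, 0.310 and 0.475 CPM against 0.281, 0.493 and 1.48 CPM. Its relative Tie1 had 103, 2 and 5 counts in K14-Cre+ and 2, 8 and 69 counts in K14-Cre- libraries. Tie1 did not pass the filter of 10 counts in 3 libraries, because only K14-Cre+ replicate 1 and K14-Cre- replicate 3 exceeded it.

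Emcn and Plvap, surface and diaphragm genes of capillaries, were left out of the test for the same reason. Emcn had 50, 2 and 3 counts in K14-Cre+ and 2, 0 and 21 counts in K14-Cre- libraries. Plvap had 61, 5 and 1 against 0, 3 and 36 counts. Esam, a junction gene, ran from 0.143 to 1.98 CPM with the same libraries on top. Eng, a co-receptor gene of transforming growth factor beta, was flatter, from 2.33 to 6.79 CPM, as was Egfl7, a secreted vessel factor gene, from 1.33 to 5.44 CPM. In both genes, reads on exon bases shared with neighbours may have been counted or left out. The unknown strand setting matters only for neighbours on the opposite strand. Eng shares 3.20% of its exon length with Ak1 on the same strand and 1.58% with Fpgs on the opposite strand. Egfl7 shares 7.37% with Gm20532 on the same strand, which had 0 counts on average, and 1.79% with Agpat2 on the opposite strand. Ak1, Fpgs and Agpat2 had more counts than the members, on average 183, 575 and 350 against 104 for Eng and 84.8 for Egfl7. Their part in the flatter values was not tested.

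Cldn5 and Lyve1 departed from the common order. Cldn5 (ENSMUSG00000041378, chromosome 16, 18776847 to 18778260, plus strand, a single exon block) encodes the tight junction protein claudin 5. It had 35, 0 and 4 counts in K14-Cre+ and 5, 38 and 83 counts in K14-Cre- libraries, or 1.08, 0 and 0.190 CPM against 0.201, 1.56 and 3.16 CPM. K14-Cre- replicates 3 and 2, not K14-Cre+ replicate 1, took the first places. Its edgeR estimate of -1.82 on the log2 scale (adjusted p = 0.417, SE 1.14) moved to -4.08 without K14-Cre+ replicate 1 and to -0.92 without K14-Cre- replicate 3. Lyve1, the hyaluronan receptor of lymphatic vessels and of some macrophages, had 1.38, 0.664 and 1.81 CPM in K14-Cre+ and 0.562, 0.739 and 1.22 CPM in K14-Cre- libraries. It was highest in K14-Cre+ replicate 3, the only member of which this was true. Prox1, the lymphatic transcription factor gene, was also highest there (2.42 CPM, against 1.15 to 2.03 CPM elsewhere). The lymphatic genes Flt4 and Ccl21a were not: they had 7 and 3 counts there against 61 and 19 in K14-Cre+ replicate 1.

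Mural genes did not all share the common order. Pdgfrb (ENSMUSG00000024620), the receptor gene through which pericytes are recruited, had 376, 4 and 12 counts in K14-Cre+ and 21, 31 and 215 counts in K14-Cre- libraries. This was 11.6, 0.177 and 0.570 CPM against 0.842, 1.27 and 8.18 CPM. Its log2 fold change was 0.29 (SE 1.36), with a 95% interval of -2.90 to 3.48. Rgs5, a regulator of G-protein signalling typical of pericytes, had 5.07, 1.06 and 1.14 CPM against 1.76, 1.73 and 6.17 CPM. Myh11, the smooth muscle myosin gene, had 1.29, 0.310 and 0.285 CPM against 0.481, 0.534 and 2.32 CPM. Rgs5 and Myh11 were highest in K14-Cre- replicate 3 and second in K14-Cre+ replicate 1, the reverse of Pdgfrb.

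Acta2, the smooth muscle actin gene, lay at 8.51, 3.85 and 1.95 CPM in K14-Cre+ and at 2.77, 8.58 and 6.36 CPM in K14-Cre- libraries. It was the only member with its highest value in K14-Cre- replicate 2. The contractile gene Tagln, from the list of other mural genes, had 6.52, 2.35 and 1.66 CPM against 2.93, 5.71 and 4.19 CPM. It likewise had K14-Cre- replicate 2 above replicate 3. The contractile genes Myl9 and Mylk of that list did not. Myl9 had 6.00 CPM in K14-Cre- replicate 2 and 6.32 CPM in replicate 3, and Mylk had 4.56 and 6.77 CPM. Des, the desmin gene of smooth, skeletal and heart muscle, lay at 2.80, 0.841 and 3.52 CPM against 0.923, 1.97 and 6.58 CPM. K14-Cre- replicate 3 was highest and K14-Cre+ replicate 3 second. The skeletal muscle gene Acta1 had the same first and second libraries, at 35.8 and 17.0 CPM, and so did Ckm, the muscle creatine kinase gene, at 8.45 and 3.90 CPM. Of the 9 skeletal muscle genes listed, Tnnt3, Mylpf and Atp2a1 also had them. Myh1, Myh2, Myh4 and Ttn did not, and none of these exceeded 1.14 CPM in any library. The part of muscle RNA in the Des value was not tested.

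**Figure D2:**
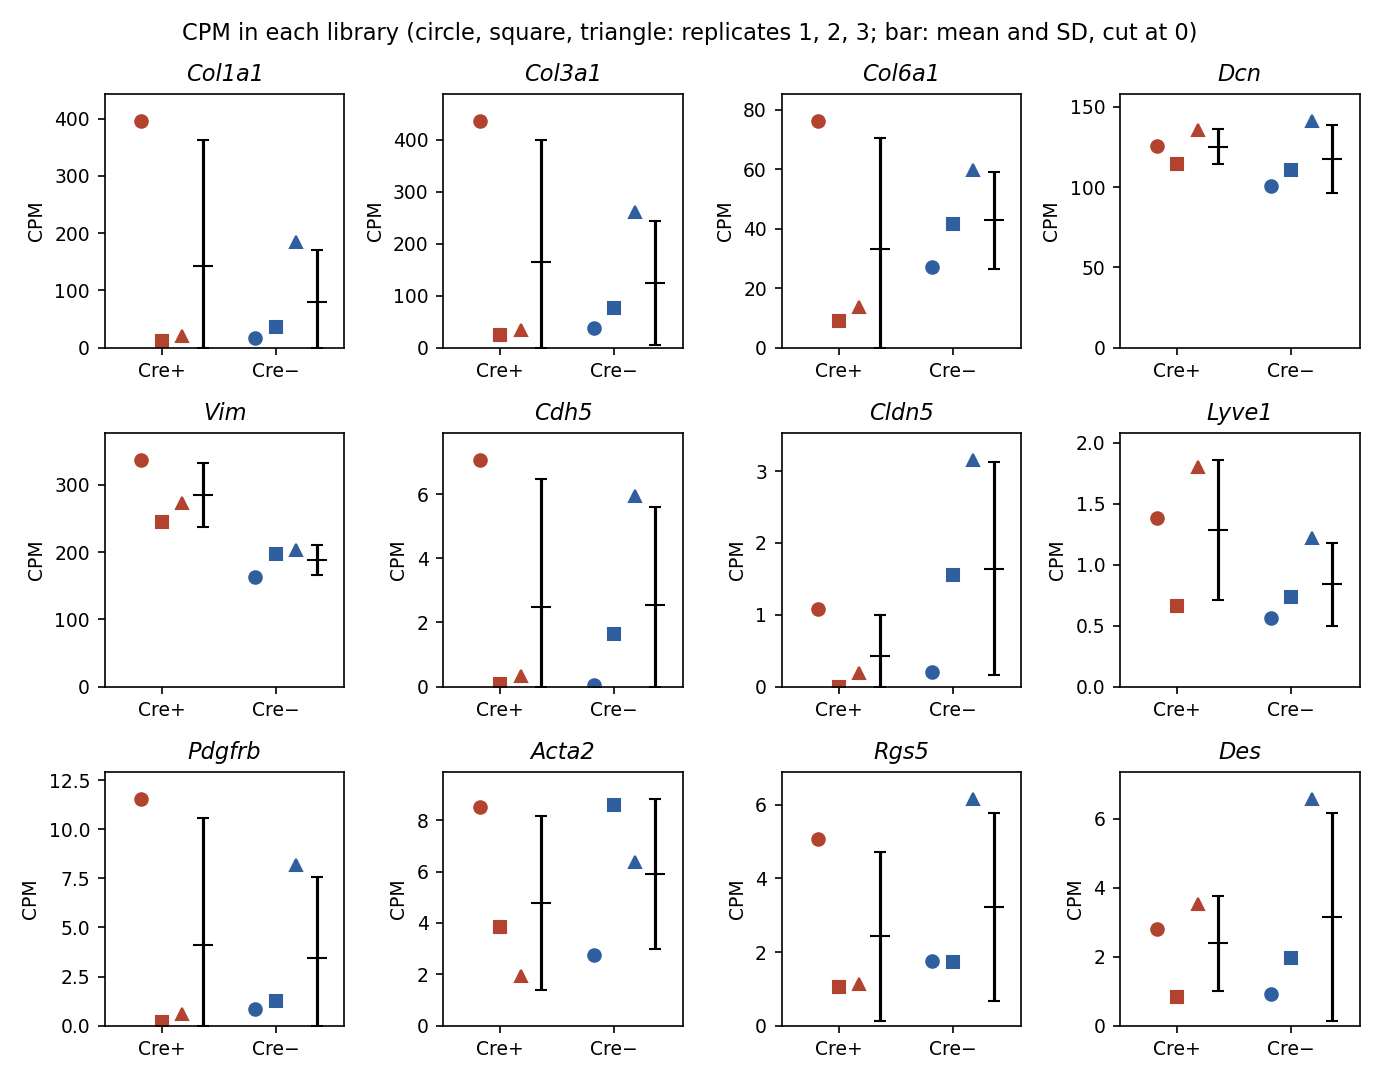
CPM of 12 members, one panel each, with K14-Cre+ libraries in red and K14-Cre- libraries in blue; circles, squares and triangles are replicates 1, 2 and 3, and the bar is the group mean with its SD, cut at 0. In the Col1a1, Col3a1, Cdh5, Pdgfrb and Rgs5 panels 1 library per group is far above the rest. The groups separate in the Vim panel, and in the Dcn panel all libraries lie between 100.4 and 141 CPM.

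Across the 34 genes, K14-Cre+ replicate 1 was highest for 22 and K14-Cre- replicate 3 for 10. No member was lowest in either. The lowest library was K14-Cre+ replicate 2 for 15 members, K14-Cre+ replicate 3 for 10, K14-Cre- replicate 1 for 8 and K14-Cre- replicate 2 for 1. The pair held both first places in 28 of 34 members, and in 25 of the 31 that passed the filter; over all tested genes this was 6.53%. The 6 exceptions were Dcn, Vim, Cldn5, Lyve1, Acta2 and Des.

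The 3 cell classes moved together. Summed over all fibroblast members, the level was 2452, 714 and 800 CPM in K14-Cre+ replicates 1, 2 and 3 and 689, 906 and 1617 CPM in K14-Cre- replicates 1, 2 and 3. Endothelial members summed to 46.7, 9.25 and 8.65 CPM against 9.10, 17.0 and 41.0 CPM. Mural members summed to 29.2, 6.24 and 7.46 CPM against 6.78, 14.1 and 29.6 CPM. The highest sum was 3.56 times the lowest for fibroblasts, 5.40 times for endothelium and 4.74 times for mural cells. On the mean of log2 CPM over the tested members, the fibroblast and endothelial classes had r = 0.98 over the 6 libraries, fibroblast and mural r = 0.98, and endothelial and mural r = 0.99. These points share library and depth, and the values are descriptions. Relative to fibroblast genes, endothelial and mural genes were highest in K14-Cre- replicate 3, by 0.41 and 0.53 on the log2 scale.

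**Figure D3:**
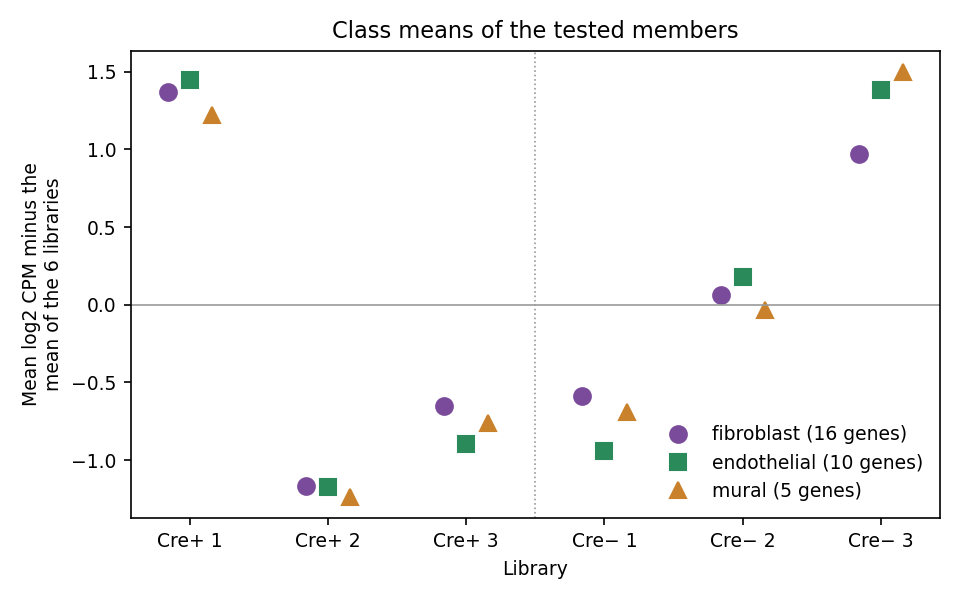
Mean log2 CPM of the tested members of each class, minus the mean of the 6 libraries, for each library; the dotted line parts the groups. The classes lie closest in K14-Cre+ replicate 2, at -1.23 to -1.16, and farthest apart in K14-Cre- replicate 3, where the fibroblast mean is 0.97, the endothelial 1.38 and the mural 1.5.

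Single members tracked their class to unequal degrees. The median r of a tested member with the mean of the others in its class was 0.94 for fibroblast, 0.92 for endothelial and 0.94 for mural genes (6 libraries each). It exceeded 0.9 in 19 of 31 members. Col3a1 was closest (r = 0.99) and Vim farthest (r = 0.30), with Lyve1 at 0.38 and Dcn at 0.45. Without the high pair of libraries, which leaves 4 points, the medians were 0.80, 0.73 and 0.69. Members also differed in slope: for each unit of log2 change in the rest of the class, Cdh5 moved by 2.34, Pdgfrb by 2.31 and Col1a1 by 2.16, against 0.29 for Sparc, 0.11 for Vim and 0.080 for Dcn.

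The spread between libraries was wide beside that of other genes. The median SD of log2 CPM over the 6 libraries was 1.21 for the 31 tested members and 0.20 for all 15525 tested genes. The median biological coefficient of variation was 0.675 against 0.139. Of the 31, 28 lay above the 90th percentile of this SD, and the remaining 3 were Dcn (47.5), Sparc (72.6) and Vim (78.6). These percentiles were not matched for level, and in members with few counts the SD also holds counting error. In 23 members the lowest library had at least 10 counts, and there the highest library held from 1.41 to 32.7 times the lowest level, with a median of 6.79. Without both high libraries, the median SD was 0.63.

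**Figure D4:**
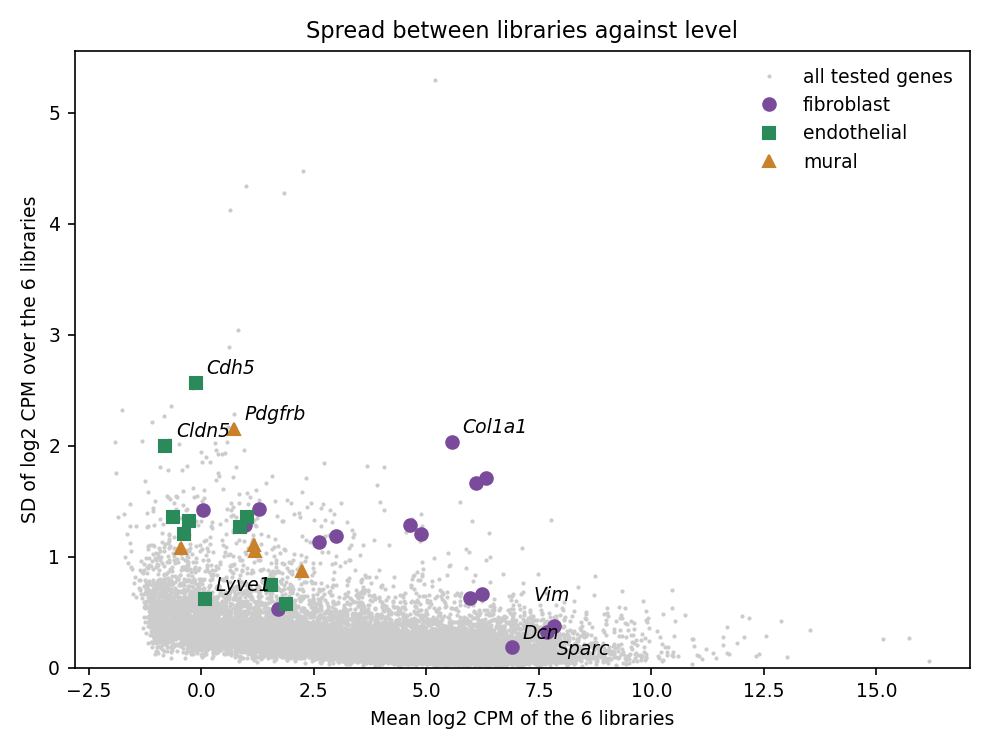
SD of log2 CPM over the 6 libraries against mean log2 CPM for all tested genes (grey) and the tested members by class. Most members lie above the grey mass, with Cdh5 at an SD of 2.57, and Dcn at 0.19 lies within it.

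Beside this spread, the comparison of K14-Cre+ with K14-Cre- libraries gave no call. By the quasi-likelihood test of edgeR 0 of 31 tested members passed an adjusted p of 0.05, in a comparison where 0.515% of all tested genes did. At an unadjusted p under 0.05 there was 1, Vim, where 18.8% of all tested genes passed. Limma-voom called 0 (0.425% of all genes) and DESeq2 called 1, again Vim. EdgeR also called 0 members with DESeq2 size factors (0.573% of all genes), with sex as a covariate (0.271%) and without K14-Cre+ replicate 2 (0.0439%). Log2 fold changes were above 0 in 17 members and below 0 in 14, with a median of 0.023 against -0.0048 over all tested genes. The members' median was below 0 by limma-voom (-0.17), with sex as a covariate (-0.20) and with total count scaling (-0.058, where that of all genes was -0.12). The median half-width of their 95% intervals was 1.88, against 0.32 for all genes, so differences of several-fold would not have been resolved here. The mean of log2 CPM over the members was 0.37 lower in K14-Cre+ libraries, with a difference of -0.30 for fibroblast, -0.41 for endothelial and -0.52 for mural genes. The median fold change and this mean thus had opposite signs.

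Directions turned with 1 library. Without K14-Cre+ replicate 1, 28 of 31 members had negative log2 fold changes (median -1.49). There 14 had an unadjusted p under 0.05, 13 of them lower, where 21.6% of all genes did, and none passed after adjustment (Col6a1 was smallest, edgeR adjusted p = 0.0936), in a fit that called 0.159% of all genes. Without K14-Cre- replicate 3, 26 of 31 were positive (median 0.58) and again 0 passed, with 0.00636% of all genes called. Without both, which leaves 2 libraries a group, 26 members could be tested. Of these 21 were negative (median -0.68) and 0 passed, 11 having an unadjusted p under 0.05 where 13.0% of all genes did, and 0 genes were called in all.

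**Figure D5:**
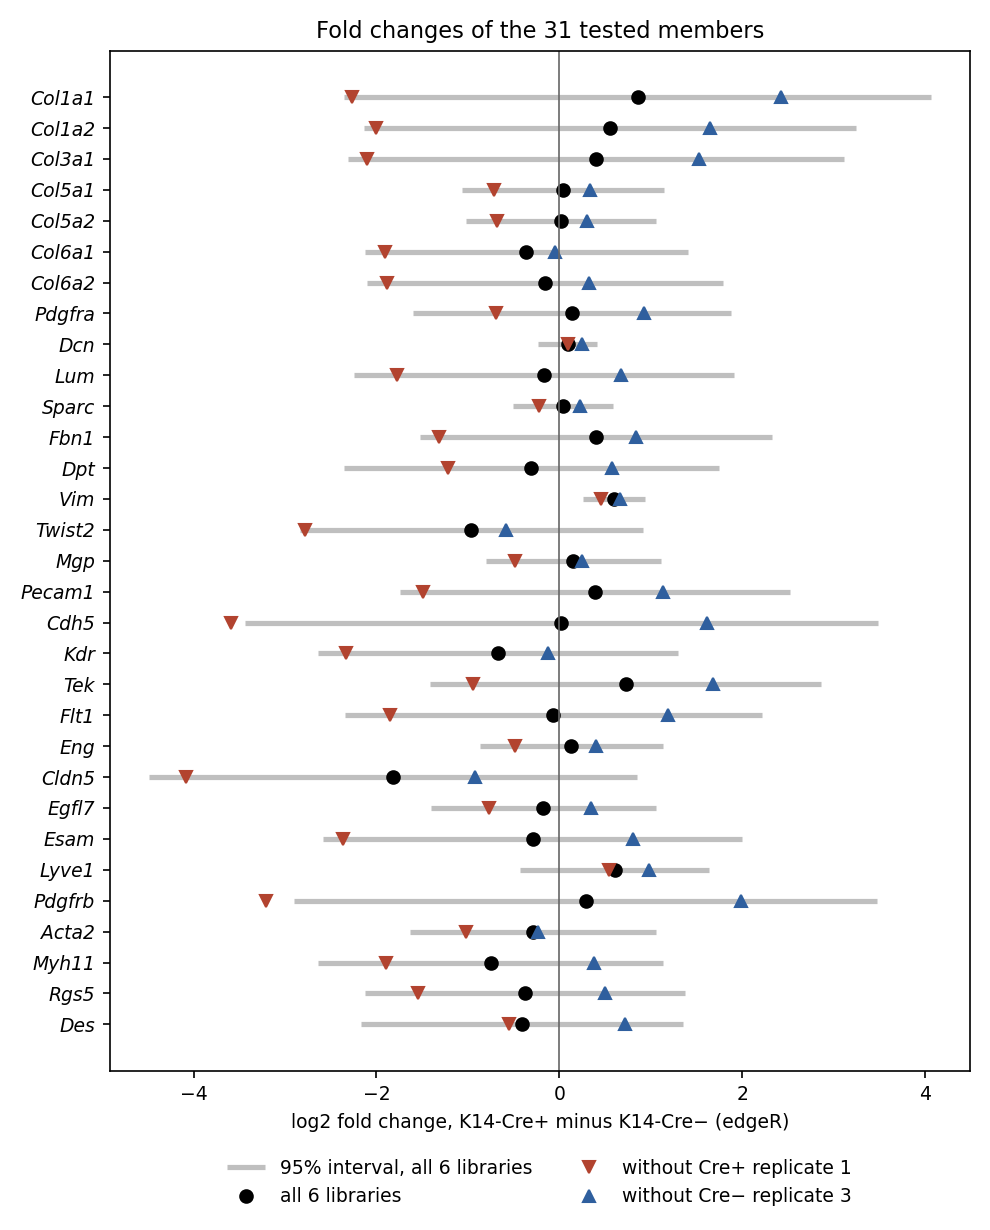
Log2 fold change (K14-Cre+ minus K14-Cre-) of each tested member with all 6 libraries (black, grey bar for the 95% interval), without K14-Cre+ replicate 1 (red) and without K14-Cre- replicate 3 (blue). Red and blue points fall on opposite sides of 0 for most genes; Vim, at 0.60 with a bar from 0.26 to 0.94, keeps its side, as does Lyve1.

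Genes of the same tissues that were not members behaved alike in part. For the counts below, edgeR called 0.515% of all tested genes, and 18.8% had an unadjusted p under 0.05. In a list of 40 other dermal matrix and fibroblast genes, 37 were tested and edgeR called 0 (4 had an unadjusted p under 0.05), and 28 of the 40 had the same pair of libraries on top. The fibronectin gene Fn1, which had another order, ran only from 167 to 234 CPM. Of 24 other endothelial genes measured, 15 were tested, 0 passed (2 at an unadjusted p under 0.05) and 18 of the 24 had the same pair on top. Of 14 other mural genes 9 were tested, 0 passed (1 at an unadjusted p under 0.05) and 7 of the 14 had the pair on top; Notch3, a mural receptor gene that keratinocytes also express, ran from 156 to 195 CPM. None of the 15 basal and 9 suprabasal keratinocyte genes had the pair on top. Only 6.53% of all tested genes did, so this absence alone says little.

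The 10 other genes most like the mean of the members, among 13852 with a mean of at least 1 CPM, had r from 0.984 to 0.996 over the 6 libraries. These points again share library and depth. The genes were Prrx1, Adamts12, Cdh11, Mest, Pdlim3, Edn3, Mmp14, Dennd2a, Adgrf5 and Cacng7. Prrx1, a mesenchymal transcription factor gene, was closest and ran from 1.81 to 21.9 CPM, whereas Mmp14, a membrane-bound matrix protease gene, was at 122 CPM or more in every library. An r above 0.9 was found for 195 of these genes, or 1.41%. Among the 80 genes called between the groups, 0 had an absolute r above 0.9 with the stromal mean. That mean was high in K14-Cre+ replicate 1 and K14-Cre- replicate 3. A gene whose groups separate could therefore hardly reach such an r, and no conclusion is drawn from the 0.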

How the data were processed

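The submitters' processing notes name GSNAP, featureCounts and mm10; versions, strand setting and multi-mapping rules were not given in the sources used here. The authors deposited counts per gene, whole numbers with no normalization. Symbols were matched by identifier for 37607 of 38924 genes. Genes were kept by filterByExpr of edgeR 4.0.16 (minimum count 10), which left 15525, scaled by TMM and tested with glmQLFit and glmQLFTest under R 4.3.3, without covariates. Two-sided p-values were adjusted over all of these genes by Benjamini-Hochberg and called under 0.05. CPM values use the same scaling; log2 CPM values add a prior count of 2. Counts per kilobase use the deposited exon lengths. SE and 95% intervals come from the same test.

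Alternatives were DESeq2 1.42.0 (Wald test, size factors), limma-voom (limma 3.58.1), total count scaling, other filters, a prior count of 5, sex as a covariate (inferred from Xist and genes on Y; each group held both), and leaving out each library. The scripts were tested on simulated counts. Leaving out both high libraries was an addition made with the data in view. The members and gene lists were chosen with earlier results of these data known. The genes named were all 34 members, up to 3 of the most abundant genes of other lists, and the 10 genes most like the member mean. Some were partly named outside this rule, after their values were seen. These were Krt5, Prox1, Flt4, Ccl21a, Tagln, Myl9, Mylk, Lyz2, Mpeg1, Cd74, H2-Ab1, Notch3, Acta1, Ckm, the other skeletal muscle genes and those in the closing section. Replicate numbers follow accession order and only name the libraries. The floor of 3 counts covers counting error only.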

Additional observations from a re-analysis of the deposited data

How the results depend on the processing

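None of the members passed by edgeR under any scaling, filter, covariate or left-out library; by the DESeq2 Wald test 1 was called higher (Vim). Over all genes edgeR called 80, against 847 by DESeq2, 142 with no filter beyond 1 count, 41 with total count scaling, 42 with sex as a covariate, 0 to 422 with 1 library left out and 0 without both high libraries. Total count scaling moved the median log2 fold change of all genes to -0.12, and the genes called split into 27 higher and 14 lower in place of 63 and 17. Log2 fold changes of members turned sign easily, both near 0 and farther from it, as for Col1a1 (0.86, SE 1.36). The cause was not tested. With limma-voom, Col1a1 turned to -0.013, Col1a2 to -0.27, Col3a1 to -0.36, Col5a1 to -0.13, Col5a2 to -0.13, Fbn1 to -0.054, Cdh5 to -0.11, Pdgfrb to -0.64. With total count scaling, Col5a1 turned to -0.037, Col5a2 to -0.059, Dcn to -0.024, Sparc to -0.058, Cdh5 to -0.024. With the DESeq2 Wald test, Cdh5 turned to -0.013. With sex as a covariate, Col1a2 turned to -0.12, Col3a1 to -0.24, Col5a1 to -0.20, Col5a2 to -0.11, Sparc to -0.025, Fbn1 to -0.035, Mgp to -0.12, Pecam1 to -0.10, Cdh5 to -0.62, Eng to -0.087, Pdgfrb to -0.14. With both high libraries left out, Col1a1 turned to -0.70, Col1a2 to -0.92, Col3a1 to -0.98, Col5a1 to -0.42, Col5a2 to -0.40, Sparc to -0.044, Fbn1 to -0.89, Mgp to -0.40, Pecam1 to -0.74, Eng to -0.21, Pdgfrb to -1.51, Des to 0.57. Leaving out 1 library turned 26 of the 31, with these lowest and highest values: Col1a1 -2.27 to 2.43, Col1a2 -2.00 to 1.65, Col3a1 -2.11 to 1.53, Col5a1 -0.72 to 0.34, Col5a2 -0.68 to 0.31, Col6a1 -1.91 to 0.082, Col6a2 -1.88 to 0.32, Pdgfra -0.69 to 0.93, Dcn -0.0053 to 0.25, Lum -1.78 to 0.67, Sparc -0.22 to 0.23, Fbn1 -1.32 to 0.86, Dpt -1.22 to 0.58, Mgp -0.48 to 0.43, Pecam1 -1.49 to 1.14, Cdh5 -3.59 to 1.62, Tek -0.95 to 1.69, Flt1 -1.85 to 1.18, Eng -0.48 to 0.40, Egfl7 -0.77 to 0.34, Esam -2.37 to 0.80, Pdgfrb -3.21 to 1.99, Acta2 -1.02 to 0.085, Myh11 -1.89 to 0.38, Rgs5 -1.55 to 0.50, Des -0.84 to 0.72. Twist2, Kdr, Cldn5, Lyve1 and Vim kept their sign there. The difference in mean log2 CPM ran from -1.06 to 0.21 for fibroblast, -1.23 to 0.17 for endothelial and -1.26 to 0.099 for mural genes. Without both high libraries the median SD of log2 CPM fell to 0.64 for fibroblast genes, 0.55 for endothelial genes and 0.63 for all, and the median r with the class to 0.80, 0.73, 0.69 for mural genes and 0.70 for all. No paired analysis was possible because the labels give no replicate numbers shared between the groups. Members with under 10 counts in a library are limited by depth there.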

Other observations

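Fat and muscle genes, which mark the tissues under the dermis, did not follow the stromal order. Adipoq, the adiponectin gene of fat cells, had 10, 2 and 1 counts in K14-Cre+ replicates 1, 2 and 3 and 6, 76 and 113 counts in K14-Cre- replicates 1, 2 and 3. Fabp4, a fatty acid carrier gene of fat cells, capillaries and macrophages, had 7.19, 7.26 and 11.9 CPM against 5.78, 18.2 and 45.3 CPM. In both genes K14-Cre- replicates 3 and 2 were thus the highest, and K14-Cre+ replicate 1, the highest in most stromal genes, was not. Plin1, Plin4 and Cidec of the same list shared this order. Retn did not: it was highest in K14-Cre+ replicate 3, at 3.75 CPM, with 2.22 and 1.83 CPM in K14-Cre- replicates 2 and 3. Of 7 adipocyte genes 4 were tested and edgeR called 0 (2 had an unadjusted p under 0.05), and Lep was at 0 counts in all 6 libraries. The 9 skeletal muscle genes summed to 14.2 to 34.5 CPM in K14-Cre+ and to 11.2 to 72.1 CPM in K14-Cre- libraries. Of the 6 tested 0 passed (1 at an unadjusted p under 0.05). Over all tested genes, edgeR called 0.515%, and 18.8% had an unadjusted p under 0.05.

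Within the list of other dermal matrix genes, Lox, the enzyme gene that crosslinks collagen and elastin, had 1036, 8 and 41 counts in K14-Cre+ and 7, 3 and 398 counts in K14-Cre- libraries. Eln, the elastin gene, had 84.3, 3.76 and 6.98 CPM against 5.25, 7.76 and 44.5 CPM. Ogn, the osteoglycin gene, had 260, 5 and 6 counts against 5, 6 and 141 counts. Both high libraries stood out in each, whereas Postn, the periostin gene, lay at 362, 275 and 132 CPM against 497, 383 and 508 CPM and its edgeR estimate was -0.85 on the log2 scale (adjusted p = 0.237, SE 0.33).

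Of 9 dermal papilla and sheath genes, all tested, edgeR called 0 (0 had an unadjusted p under 0.05), and 4 had K14-Cre+ replicate 1 and K14-Cre- replicate 3 on top. Hemoglobin and other red cell genes, 5 in number, summed to 27.3 to 34.7 CPM in K14-Cre+ and to 34.2 to 68.0 CPM in K14-Cre- libraries. Of these 0 passed (2 at an unadjusted p under 0.05). The shares of all tested genes were 0.515% called by edgeR and 18.8% at an unadjusted p under 0.05.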
